A study of Mus musculus with 71 samples.

Results

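The genes described here are those of cholesterol and fatty acid synthesis: the regulators that switch the pathway on and off, the enzymes from acetyl units to cholesterol, a sterol carrier, and the enzymes that build and modify fatty acids. They were chosen by name from a list of 31 genes, without use of any measured value of the arrays in the choice rule itself. The list was made with earlier results of these data known. Of the 31 genes, 30 had at least 1 probe set that names that gene alone, and 69 probe sets in all represent them among 45037 tested. They are 30 of 18193 named genes. A probe set is a group of short array sequences that reports 1 transcript, and each gene was counted on its brightest probe set. The RNA of Acat2, an acetyl-CoA acetyltransferase gene at the head of the pathway, was not analysed here, though its promoter is among those counted for motifs.

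The arrays measured RNA from whole brain of male mice aged 12 to 13 weeks, from 3 inbred strains, DBA/2J, AKR/J and C57BL/6J. Mice were kept awake for 6 h up to sacrifice or were home-cage controls killed alongside them, at ZT0, ZT6, ZT12 or ZT18. ZT counts hours from lights-on, and lights went off at ZT12. Each array carried equal amounts of RNA from 3 mice, so a replicate is a pool and the spread between single animals is not seen. There were 35 sleep-deprived and 36 control arrays in 24 groups, with 3 arrays in each of 23 groups and 2 in AKR/J mice sleep-deprived up to ZT18. The question was how lost sleep affects brain transcripts, and whether genotype or clock time modifies it. Values are log2 signal, so a difference of 1 means 2 times the signal. How finely a value is known depends on how many arrays stand behind it.

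Cholesterol does not cross the blood-brain barrier to a useful degree, so brain cells make their own, in adults chiefly for myelin, membranes and synapses. Synthesis is controlled by the sterol regulatory element-binding proteins (SREBPs), transcription factors made as membrane precursors. When sterols are scarce, the escort protein Scap carries them to the Golgi, where they are cut and released to the nucleus. When sterols are plentiful, the Insig proteins hold Scap and its cargo in the endoplasmic reticulum.

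Promoter sequences are shown for 4 genes, and whether their motifs bear on the changes in RNA was not tested. Lss and Insig1 had the largest falls among the members, and Elovl6 had the largest rise. Hmgcs1 was the one gene of 25 with a promoter in the table that held a sterol regulatory element core. Each sequence runs from 250 bases before to 50 bases after a transcription start of RefSeq on mouse build GRCm38.p6, on the + strand. Capitals mark matches, on either strand, to 4 motifs: the sterol regulatory element core TCACNCCAC, the NF-Y box CCAAT, the E-box CACGTG and the GC box GGGCGG. No base of these 4 promoters lies in 2 matches.
Insig1, chr5:28071162-28071461: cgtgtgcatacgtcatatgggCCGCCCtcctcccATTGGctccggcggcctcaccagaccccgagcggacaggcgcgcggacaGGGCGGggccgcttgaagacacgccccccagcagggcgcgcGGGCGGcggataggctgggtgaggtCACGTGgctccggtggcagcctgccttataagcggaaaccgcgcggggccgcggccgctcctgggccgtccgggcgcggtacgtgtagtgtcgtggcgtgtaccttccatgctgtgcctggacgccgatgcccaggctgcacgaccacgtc
Lss, chr10:76531355-76531654: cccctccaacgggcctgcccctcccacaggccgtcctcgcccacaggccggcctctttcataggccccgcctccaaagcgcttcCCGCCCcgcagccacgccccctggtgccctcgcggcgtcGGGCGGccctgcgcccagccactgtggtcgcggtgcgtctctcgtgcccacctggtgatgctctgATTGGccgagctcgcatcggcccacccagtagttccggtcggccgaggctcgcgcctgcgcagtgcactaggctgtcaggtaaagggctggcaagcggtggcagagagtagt
Hmgcs1, chr13:119690101-119690400: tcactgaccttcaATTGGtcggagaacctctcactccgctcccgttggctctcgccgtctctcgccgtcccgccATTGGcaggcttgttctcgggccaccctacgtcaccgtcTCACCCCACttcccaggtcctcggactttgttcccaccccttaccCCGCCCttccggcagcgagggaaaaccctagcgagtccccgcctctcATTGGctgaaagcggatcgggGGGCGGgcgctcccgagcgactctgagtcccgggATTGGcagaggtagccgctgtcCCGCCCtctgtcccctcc
Elovl6, chr3:129532136-129532435: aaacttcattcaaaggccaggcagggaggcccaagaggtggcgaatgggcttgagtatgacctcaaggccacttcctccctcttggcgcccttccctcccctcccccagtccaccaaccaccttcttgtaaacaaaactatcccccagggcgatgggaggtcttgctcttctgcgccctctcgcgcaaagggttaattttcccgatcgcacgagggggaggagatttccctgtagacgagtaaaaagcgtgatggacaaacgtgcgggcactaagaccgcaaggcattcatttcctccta

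The Hmgcs1 promoter held the sterol regulatory element core, with its first base 137 bases before the start, together with 4 NF-Y boxes and 3 GC boxes. That of Insig1 held 1 NF-Y box, 1 E-box and 3 GC boxes, and that of Lss held 1 NF-Y box and 2 GC boxes. None of the motifs was found in the Elovl6 window. Other genes that rose after sleep deprivation did hold motifs: Ebp had 2 NF-Y boxes and 1 GC box, and an Insig2 promoter had 3 NF-Y boxes. Acaca, which was not called for sleep deprivation, held none. Over 33 promoters of 25 listed genes, 66.7% held an NF-Y box, against 38.2% of the 21262 promoters of protein-coding genes and 37.4% of all 32851 in the RefSeq table. The E-box stood in 21.2% of the members' promoters, against 7.84% of the protein-coding ones and 7.15% of all, and the GC box in 72.7%, against 46.2% and 35.7%. The sterol element core stood in 3.03%, against 1.19% and 1.24%. A match describes the letters in this window and does not show that a factor binds there.

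The deposited values had array medians between 5.65 and 5.71, and the lowest correlation between any pair of arrays was 0.986. Genes that mark neurons had a mean level of 11.38 to 11.59 on sleep-deprived arrays and 11.33 to 11.59 on controls, while the liver gene Alb averaged 3.97. Pituitary hormone genes varied widely within both conditions, from 5.21 to 10.38 on sleep-deprived arrays and from 5.25 to 10.62 on controls, and none of 5 was called for sleep deprivation. On 6 arrays, 3 sleep-deprived and 3 control, the added poly-A control transcripts deviated by -0.5 to -0.32 log2 units from the mean. Of the 6, 4 were C57BL/6J and the rest AKR/J, all at ZT0 or ZT6. C57BL/6J sleep-deprived ZT6 replicates 1 and 3 were among them, so strain and time are not balanced over these arrays. Without these 6 arrays 17 members fell and 3 rose after sleep deprivation, against 16 and 3 with them.

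After sleep deprivation, RNA of the SREBP regulators and of the sterol enzymes was mostly lower. The change was tested with limma as sleep-deprived minus control, averaged over the 12 combinations of strain and time, with p-values adjusted by Benjamini-Hochberg across every tested probe set and a threshold of 0.05 on the adjusted p. Of the 30 measured members 16 fell and 3 rose. Of all named genes 22.1% were called, 12.2% as lower and 9.95% as higher. The falls were thus a larger share among the members than among all genes, and the rises about the same share. Because the members were listed with earlier results of these data known, this excess is not independent evidence. The shares over all named genes, here and below, are not matched for level. The brightest probe set of every measured member lay above the median level of all probe sets. The median change of the members was -0.078 log2 units, against -0.005 over all named genes. Changes were small, with Lss at 0.804 and Elovl6 at 1.09 times the control signal as the extremes. In bulk tissue fewer cells of a type and less RNA per cell cannot be told apart.

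**Figure D1:**
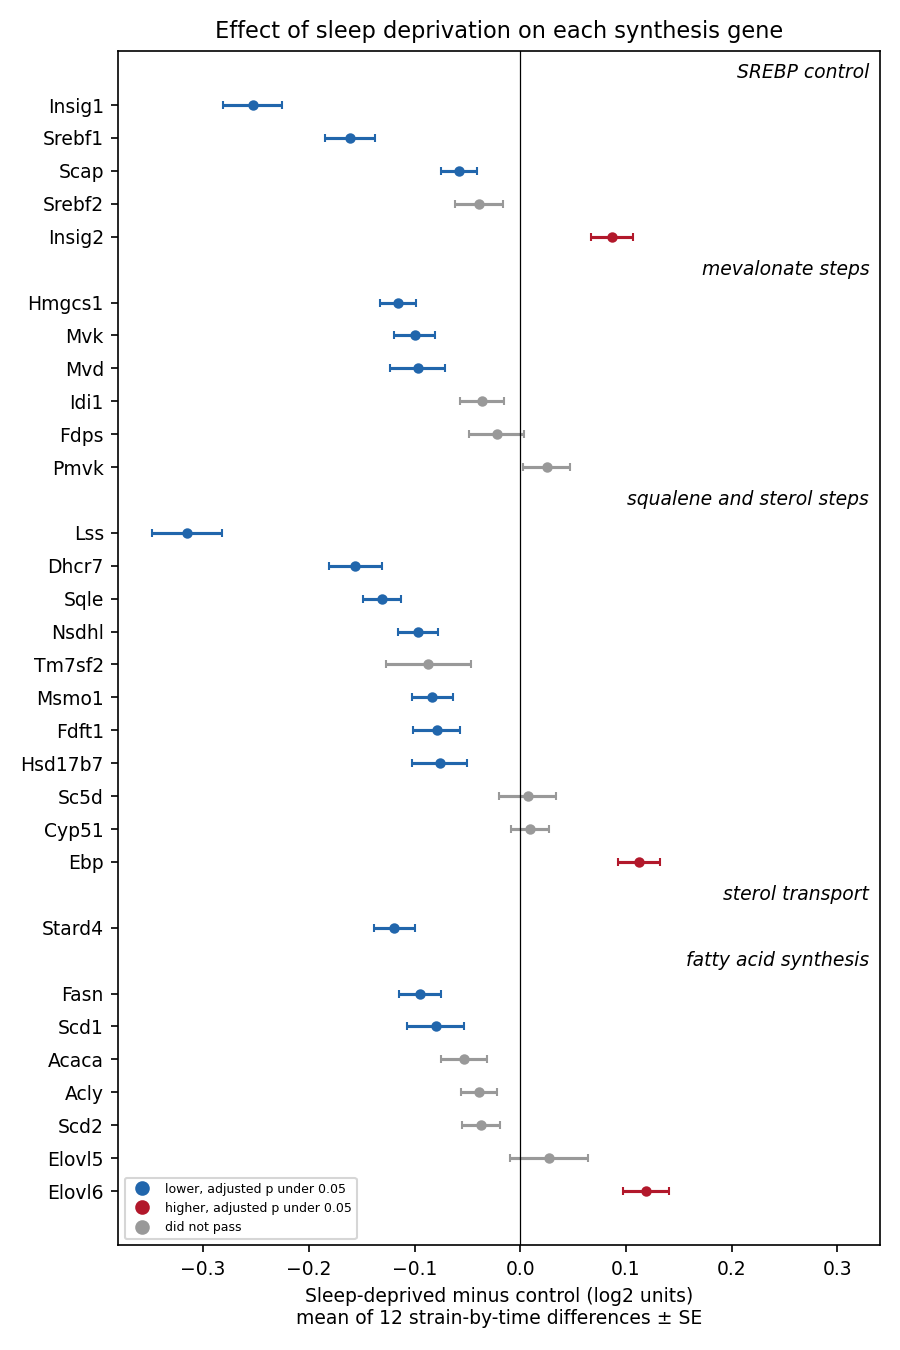
Change in signal of each measured gene (horizontal axis, log2 units, sleep-deprived minus control), grouped by role; points are the mean of 12 strain-by-time differences and bars the standard error. Lss at -0.315 and Insig1 at -0.25 lie farthest to the left, and Ebp, Elovl6 and Insig2 are the 3 genes called higher.

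Among the 5 genes of SREBP control, 3 fell and 1 rose. Insig1, the retention protein whose own gene is a target of the SREBPs, had a lowest, median and highest level of 7.26, 7.68 and 8.05 on 35 sleep-deprived arrays, against 7.44, 7.88 and 8.41 on 36 control arrays. It changed by -0.25 ± 0.03 log2 units (SE; limma adjusted p = 2.54e-10) and was lower in 11 of 12 strain-times. The ranges of the conditions overlapped over all arrays. Srebf1 encodes the SREBP most tied to fatty acid genes. Its lowest, median and highest levels were 7.97, 8.25 and 8.37 in sleep-deprived mice and 8.17, 8.41 and 8.65 in controls, a change of -0.16 ± 0.02 (adjusted p = 4.7e-07) seen in 11 of 12 strain-times. The control median thus lay above the highest sleep-deprived array. Scap, the escort protein, fell by 0.058, though the mean of its probe sets changed by -0.029 and was not called (adjusted p = 0.249), and Srebf2, the SREBP most tied to sterol genes, did not pass the test at -0.039 (adjusted p = 0.279).

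Insig2, the other retention protein, went the other way. On its brightest probe set it spanned 8.84 to 9.29 with a median of 9.15 in sleep-deprived mice, and 8.73 to 9.31 with a median of 9.05 in controls. The change was 0.087 ± 0.02 (adjusted p = 0.000888), and its other 2 probe sets were also called higher, at 0.073 and 0.047. Insig1 and Insig2 therefore moved in opposite directions on the same arrays.

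The mevalonate steps turn acetyl units into the isoprene blocks of sterols. Here 3 of 6 measured genes fell and none rose. Hmgcs1, which makes HMG-CoA, had levels of 11.09, 11.32 and 11.50 (lowest, median, highest) in sleep-deprived mice and 11.01, 11.41 and 11.68 in controls, a change of -0.12 ± 0.02 (adjusted p = 5.27e-07). Of its other 4 probe sets 3 were also called lower. Mvk, mevalonate kinase, had 7.12, 7.30 and 7.46 in sleep-deprived mice against 7.18, 7.41 and 7.60 in controls, and changed by -0.10 ± 0.02 (adjusted p = 5.18e-05). For both genes the ranges overlapped, and both were lower in 11 of 12 strain-times. Mvd, the mevalonate diphosphate decarboxylase, fell by 0.097 on a probe set that can match several transcripts, and by 0.12 on its other one. Pmvk, Idi1 and Fdps, which come next to these steps, lay between -0.036 and 0.025 and did not pass.

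The squalene and sterol steps held the largest fall: 7 of 11 genes fell and 1 rose. Lss closes the first sterol ring system, turning squalene epoxide into lanosterol. Its level was 6.64, 7.00 and 7.33 (lowest, median, highest) on sleep-deprived arrays and 6.71, 7.30 and 7.87 on control arrays. The change was -0.315 ± 0.033 (adjusted p = 2.69e-11), and it was negative in 11 of 12 strain-times. Over all strains and times together, sleep-deprived arrays had the narrower spread, with an SD of 0.14 against 0.25 in controls. These SDs include differences between times, where fitted levels spanned 0.13 in sleep-deprived mice and 0.47 in controls. The fall rests on 1 of 3 probe sets: the 2 dimmer ones changed by -0.022 and -0.007 and were not called, and the mean of all 3 changed by -0.115.

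Sqle, squalene epoxidase, stood at 8.79, 8.95 and 9.12 in sleep-deprived mice and 8.90, 9.08 and 9.40 in controls. Its change of -0.13 ± 0.02 (adjusted p = 1.45e-07) was negative in 12 of 12 strain-times. Dhcr7, the reductase of the last step to cholesterol, had 7.81, 8.08 and 8.36 in sleep-deprived mice against 7.82, 8.25 and 8.58 in controls, and changed by -0.16 ± 0.03 (adjusted p = 2.2e-06). The lowest arrays of the conditions were alike for Dhcr7 and its higher arrays were controls. Nsdhl, Msmo1 and Hsd17b7, enzymes of sterol demethylation, and Fdft1, squalene synthase, fell by 0.097, 0.083, 0.076 and 0.079. The brightest probe sets of Hsd17b7 and Fdft1 are also of a type that can match several transcripts. With the mean of a gene's probe sets Hsd17b7 and Fdft1 each changed by -0.032 and were not called (adjusted p = 0.0785 and 0.157). The Hsd17b7 call was the weakest of these (adjusted p = 0.0348), and its other 3 probe sets were not called.

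Ebp, the sterol isomerase, was the one sterol enzyme called higher. It had levels of 7.99, 8.22 and 8.41 in sleep-deprived mice against 7.87, 8.09 and 8.29 in controls, a change of 0.11 ± 0.02 (adjusted p = 2.11e-05) that was positive in 12 of 12 strain-times. Cyp51, Tm7sf2 and Sc5d did not pass on their brightest probe sets, at 0.009, -0.087 and 0.007. For Sc5d, the sterol desaturase, the next brightest probe set was called higher (0.13, adjusted p = 0.000277), so its probe sets disagree.

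Stard4, which carries cholesterol between membranes, fell on all 3 of its probe sets. The brightest had 8.02, 8.27 and 8.73 in sleep-deprived mice and 8.07, 8.39 and 8.82 in controls, with a change of -0.12 ± 0.02 (adjusted p = 1.83e-06). The ranges overlapped, and the strains also differed in Stard4 when undisturbed.

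Among 7 genes of fatty acid synthesis 2 fell and 1 rose. Fasn, fatty acid synthase, fell by 0.095 (adjusted p = 0.000276), and Scd1, a desaturase, by 0.08 (adjusted p = 0.031). In DBA/2J controls at ZT6, replicate 3 stood apart: Scd1 had 10.05, 9.97 and 10.86, Elovl5 10.11, 10.10 and 11.33, and Fasn 9.75, 9.75 and 10.07 in replicates 1 to 3. Without it Scd1 changed by -0.057 (adjusted p = 0.00741), Fasn by -0.086, and Elovl5 by 0.061, which was then called (adjusted p = 0.0099). The Scd1 call was lost without sleep-deprived AKR/J replicate 2 at ZT18 (adjusted p = 0.0508). Elovl6, which lengthens palmitate to stearate, rose: its levels were 9.09, 9.32 and 9.50 in sleep-deprived mice and 8.95, 9.15 and 9.49 in controls, a change of 0.12 ± 0.02 (adjusted p = 4.3e-05) that was positive in 11 of 12 strain-times. A second Elovl6 probe set was also called higher, at 0.13, and the remaining dim one changed by 0.008. Acly, Acaca, Scd2 and Elovl5 lay between -0.053 and 0.027 and were not called with all arrays. The brightest Elovl5 probe set is of a type that can match several transcripts. The plot of levels on every array shows Lss and Insig1, with the largest falls, Sqle, lower in every strain-time, and Ebp, higher in every strain-time.

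**Figure D2:**
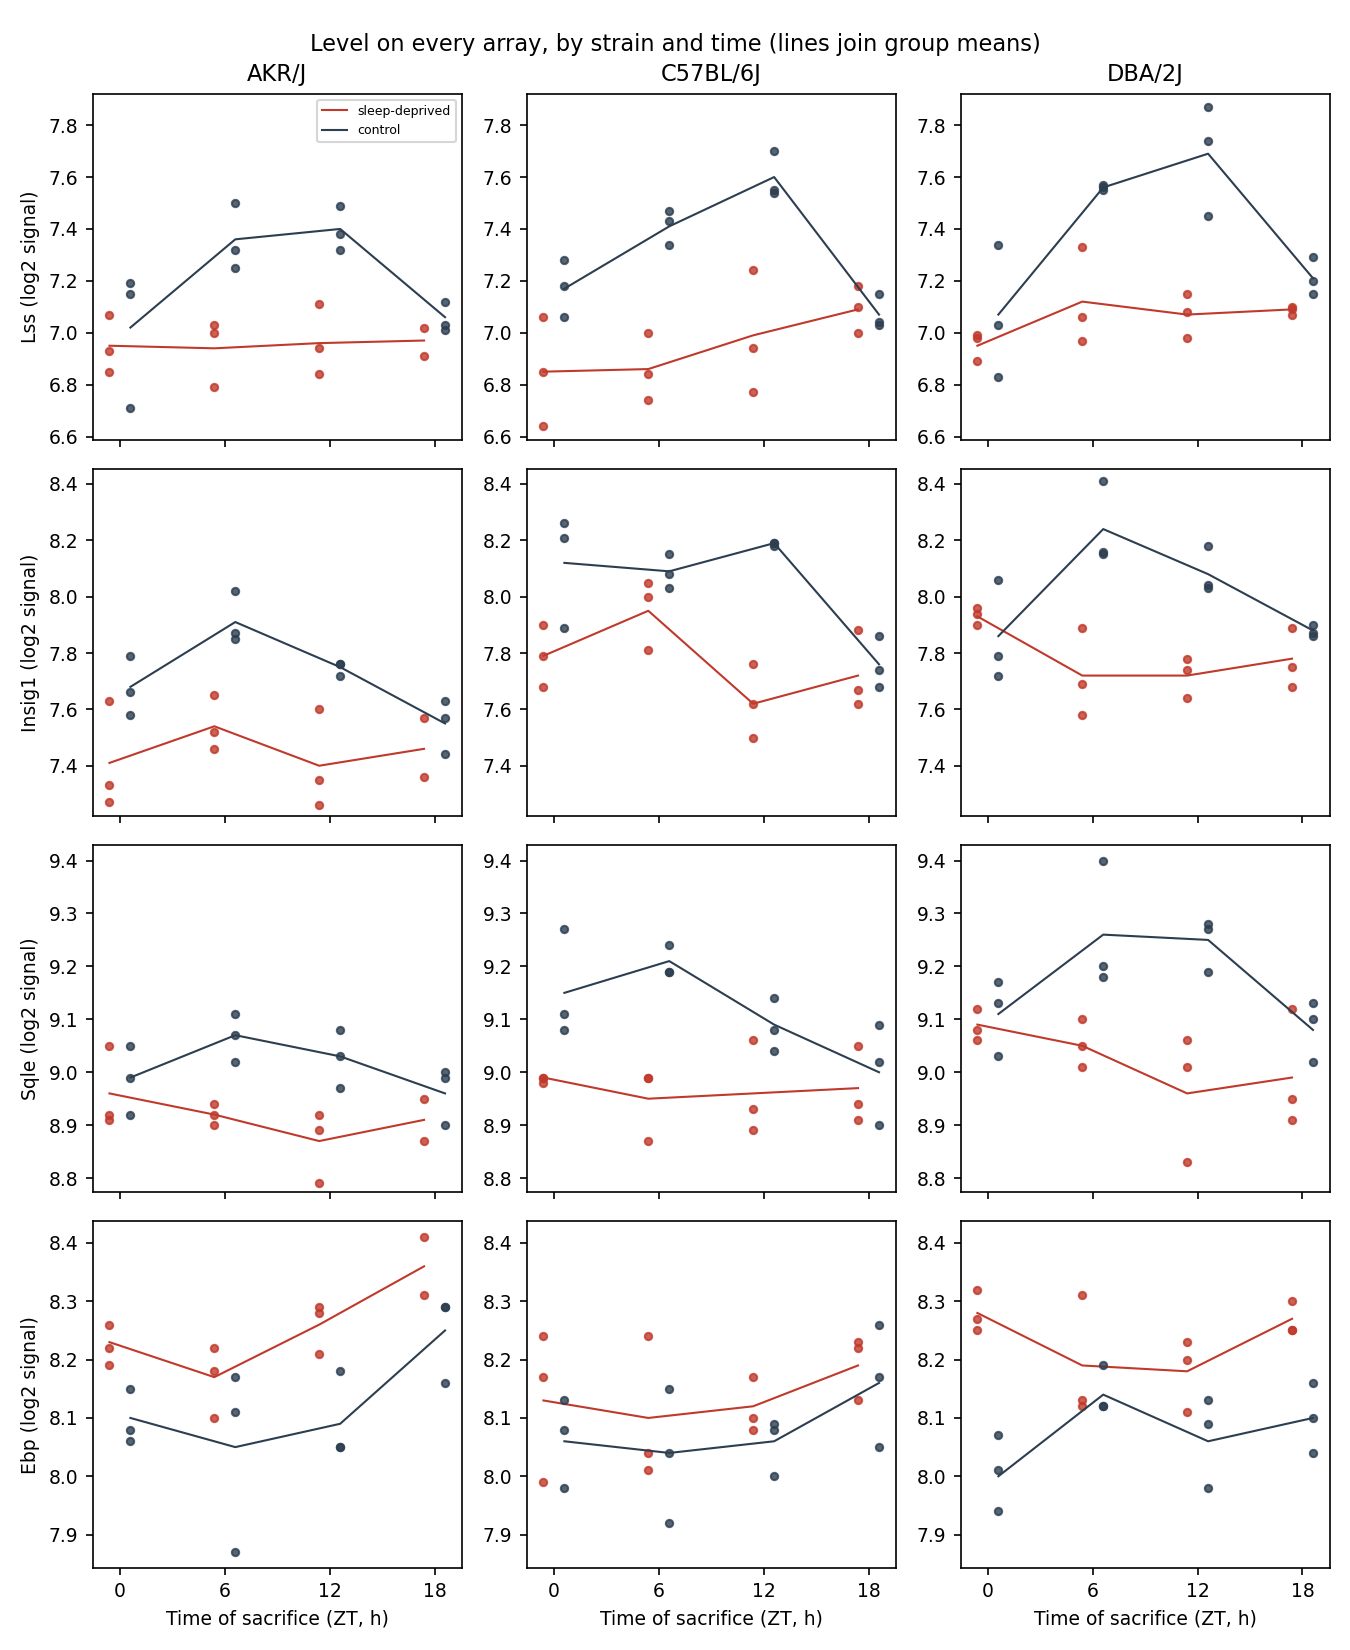
Level of Lss, Insig1, Sqle and Ebp (vertical axis, log2 signal) on every array against time of sacrifice (ZT, hours), in a column for each strain; dots are arrays and lines join group means. At ZT12 the sleep-deprived arrays of Lss reach 7.24 at most, below the lowest control at 7.32, while at ZT18 the conditions overlap.

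The 43 measured of 49 further genes of lipid metabolism, listed by function, gave 12 falls and 4 rises, with a median of -0.024. Their calls also exceeded the share of 22.1% over all named genes, though this list was likewise made with earlier results of these data known. In the group of other sterol enzymes and SREBP targets, 3 of 4 fell: Mid1ip1, an activator of acetyl-CoA carboxylase, by 0.11, Tmem97, a sterol-responsive membrane protein, by 0.13, and Aacs, acetoacetyl-CoA synthetase, by 0.087. Of 6 genes that process SREBPs or turn over their regulators, Mbtps1, the site protease that makes the first cut, fell by 0.09 and Erlin2 by 0.082, while Syvn1, a ubiquitin ligase of the endoplasmic reticulum, rose by 0.17. In the sterol efflux and turnover group 2 of 9 fell, Abca1 by 0.081 and Cyp27a1 by 0.088. The isoprenoid branch had 2 falls and 1 rise among 7, and fatty acid activation, elongation and supply had 3 falls and 2 rises among 17.

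Some markers of cell types moved with sleep deprivation too, and their part in the results above was not tested. Of 10 measured oligodendrocyte genes 4 fell and 2 rose. Opalin, a myelin membrane protein, changed by -0.59, Mog by -0.12, Mag by -0.099 and Cnp by -0.071, while Ermn rose by 0.078 and Ugt8a by 0.059. The mean level of the list was 10.22 to 10.63 on sleep-deprived arrays and 10.29 to 10.79 on control arrays. Of 5 precursor genes 1 fell and 2 rose, of 8 astrocyte genes 1 fell, and of 8 neuron genes 1 fell and 1 rose. The astrocyte and neuron counts lie near or below the share of 22.1% called over all named genes. None of the 4 choroid plexus genes was called. Of 5 endothelial genes 2 fell and 1 rose: Slco1a4, an organic anion transporter of brain vessels, changed by -0.25 (adjusted p = 1.1e-14), as much as Insig1, Cldn5 by -0.07 and Flt1 by 0.086. Their mean level was 7.10 to 7.42 on sleep-deprived arrays and 7.01 to 7.42 on control arrays. Of 6 microglial genes P2ry12 fell (-0.16) and Tmem119 rose (0.12), and their mean level was 7.13 to 7.76 on sleep-deprived arrays and 7.23 to 7.66 on control arrays.

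By strain, 5 members fell and 2 rose in AKR/J, where 3.4% of all named genes fell and 4.09% rose. In C57BL/6J 13 fell and none rose, against 4.41% and 4.14% of named genes, and in DBA/2J 7 fell and 2 rose, against 4.94% and 4.12%. The medians over the members were -0.04, -0.094 and -0.089, against -0.009, -0.004 and -0.002 over all named genes. The C57BL/6J falls include Sc5d (-0.18), whose next brightest probe set had a higher mean in sleep-deprived C57BL/6J, at 8.04 against 7.89. Insig1 fell in every strain. Its lowest, median and highest levels were 7.26, 7.46 and 7.65 in sleep-deprived AKR/J against 7.44, 7.74 and 8.02 in AKR/J controls, 7.50, 7.77 and 8.05 against 7.68, 8.11 and 8.26 in C57BL/6J, and 7.58, 7.77 and 7.96 against 7.72, 8.04 and 8.41 in DBA/2J. The conditions overlapped within each strain, but each control median was above the highest sleep-deprived array. Lss, Hmgcs1 and Stard4 were also called lower in each of the 3 strains.

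Other calls stood in 1 or 2 strains. Insig2 was called higher in AKR/J alone (0.15, adjusted p = 0.00563), Elovl6 in DBA/2J alone (0.15, adjusted p = 0.0094), and Ebp in AKR/J and DBA/2J at 0.13 and 0.15. Nsdhl changed by -0.17 in C57BL/6J (adjusted p = 0.000188), against -0.052 in AKR/J and -0.066 in DBA/2J, which did not pass. Fasn changed by -0.026 in AKR/J and -0.10 in DBA/2J, neither called, and was called in C57BL/6J. Whether strains differ was tested directly, and no member passed the limma F test of strain by sleep deprivation, where 0.033% of all named genes were called and 5 members had an unadjusted p under 0.05. The gene nearest to the threshold was Sc5d on its brightest probe set, with 0.11 in AKR/J, -0.18 in C57BL/6J and 0.09 in DBA/2J (adjusted p = 0.0614). Its next brightest probe set had higher means in sleep-deprived mice than in controls in each strain. These were 7.85 against 7.75 in AKR/J, 8.04 against 7.89 in C57BL/6J and 7.92 against 7.8 in DBA/2J. The opposite direction in C57BL/6J thus stood on the brightest probe set and not on the next. That brightest probe set was called in this F test when 1 of 7 arrays was left out and under 4 other settings, given in the section on processing. The AKR/J count was also 2 or 3 without 1 of 4 arrays named there.

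By time, most of the called falls stood at ZT6 and ZT12, after deprivation in the first and second part of the light phase. At ZT0 2 members fell and 2 rose, where 0.616% of all named genes fell and 1.52% rose. At ZT6 13 fell and 1 rose, against 6.73% and 6.44% of named genes, and at ZT12 14 fell and 1 rose, against 7.21% and 5.69%. At ZT18 no member was called by limma and 1 had an unadjusted p under 0.05, while 0.0275% of named genes fell and 0.11% rose. Member medians were -0.028 at ZT0, -0.108 at ZT6, -0.121 at ZT12 and -0.022 at ZT18, while those of all named genes lay between -0.009 and -0.002. The 2 falls at ZT0 were Srebf1 (-0.19, adjusted p = 0.0162) and Mvk (-0.14, adjusted p = 0.0328), and the 2 rises Insig2 and Ebp, both 0.16. Neither rise was called after quantile normalization or with only the compared groups. The ZT0 count of falls was 0 without either C57BL/6J control replicate 3 or C57BL/6J sleep-deprived replicate 1, and so was that of rises, which was also 0 without C57BL/6J sleep-deprived replicate 2. The count of rises was 1 without AKR/J control replicate 1 or 3, DBA/2J control replicate 1 or 3, or DBA/2J sleep-deprived replicate 3.

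At ZT12, after the second 6 h of light, Lss levels in sleep-deprived mice were 6.94, 7.11 and 6.84 in AKR/J, 6.94, 6.77 and 7.24 in C57BL/6J, and 7.08, 7.15 and 6.98 in DBA/2J. In ZT12 controls they were 7.32, 7.49 and 7.38 in AKR/J, 7.54, 7.70 and 7.55 in C57BL/6J, and 7.45, 7.87 and 7.74 in DBA/2J. Every sleep-deprived array was below every control array, and the mean change was -0.55 ± 0.06 (adjusted p = 2.75e-09). At ZT6 the 9 sleep-deprived arrays spanned 6.74 to 7.33 and the 9 controls 7.25 to 7.57, with a change of -0.47 (adjusted p = 2.08e-07) and a slight overlap.

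Insig1 at ZT12 read 7.26, 7.35 and 7.60 in sleep-deprived AKR/J against 7.76, 7.72 and 7.76 in controls. In C57BL/6J it read 7.76, 7.62 and 7.50 against 8.19, 8.18 and 8.19, and in DBA/2J 7.78, 7.74 and 7.64 against 8.18, 8.04 and 8.03. Within each strain the conditions did not overlap, and the mean change was -0.42 ± 0.06 (adjusted p = 6.98e-08), against -0.34 at ZT6. Next by size at ZT12 came Dhcr7 at -0.28, Hsd17b7 at -0.24, Stard4 at -0.22, Srebf1 at -0.20 and Sqle at -0.19. At ZT6 Dhcr7 changed by -0.21, and Mvd, Sqle, Srebf1 and Nsdhl by -0.20 each. Elovl6 was the member called higher at both times, by 0.20 at ZT6 and 0.18 at ZT12.

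Whether the effect depends on time was tested with an F test, which called 2 members against 1.83% of all named genes. The Lss effect was -0.17 at ZT0, -0.47 at ZT6, -0.55 at ZT12 and -0.07 at ZT18, a range of 0.49 on its brightest probe set (adjusted p = 0.000785) and of 0.23 for the mean of its 3 probe sets (adjusted p = 0.00324). For Insig1 it was -0.17, -0.34, -0.42 and -0.07 at the same times, a range of 0.35 (adjusted p = 0.0211). Leaving out sleep-deprived AKR/J replicate 2 at ZT18, a group of 2 arrays, left Lss alone (Insig1 adjusted p = 0.0773). A second Stard4 probe set and a second Fdft1 probe set were called as well (adjusted p = 0.00523 and 0.026), though not the brightest ones. Of all 30 members, 14 had an unadjusted p under 0.05. Opalin, the oligodendrocyte gene, also changed with time in its response (range 0.75, adjusted p = 1.41e-09), as did 2 of the 10 oligodendrocyte markers in all, and their part in the result was not tested.

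**Figure D3:**
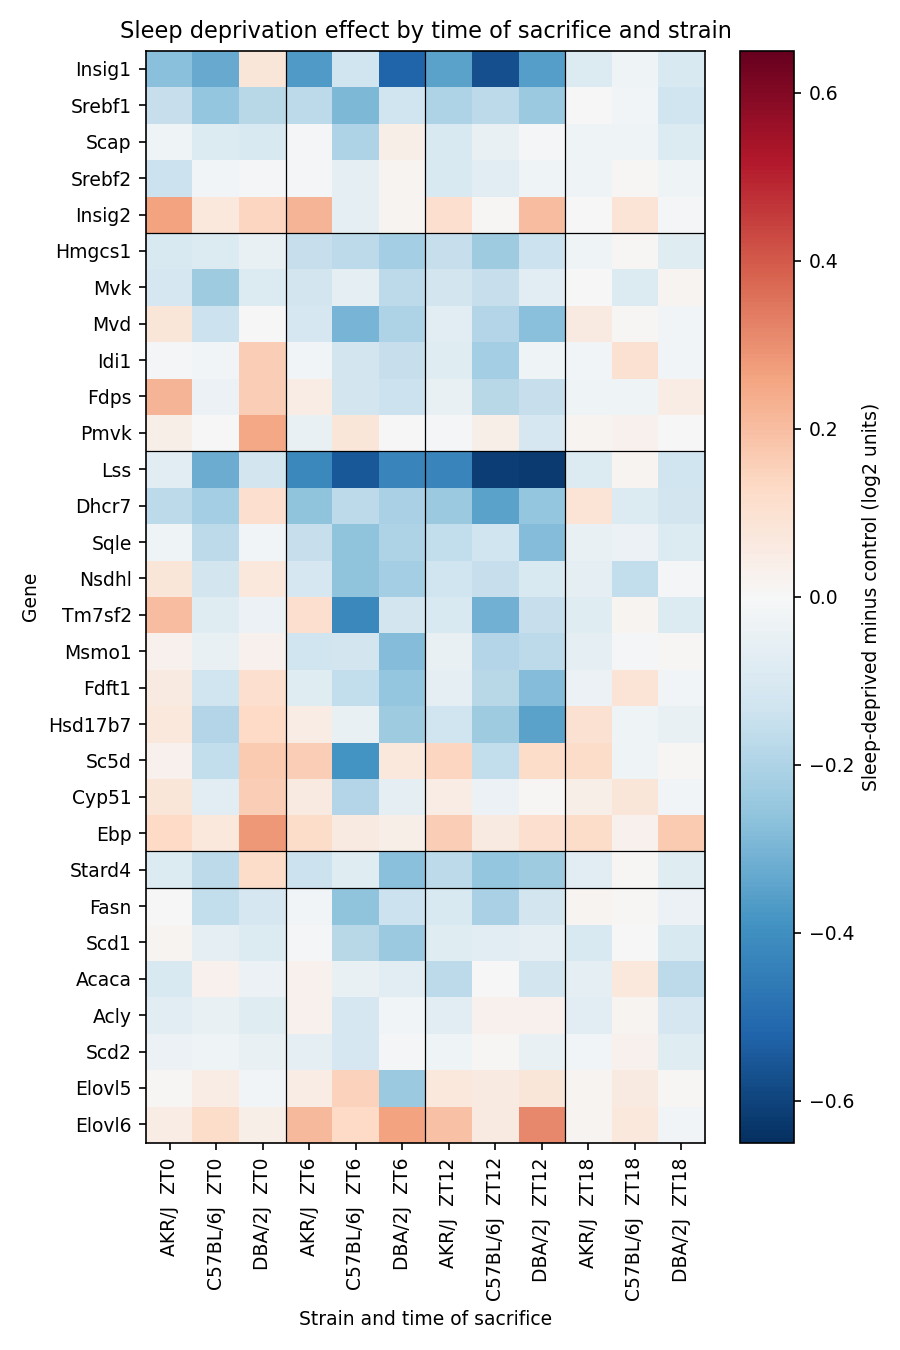
Change of each measured gene (rows, by role) in each strain at each time of sacrifice (columns), as colour from -0.65 to 0.65 log2 units, sleep-deprived minus control; blue is lower and red higher. The columns of ZT6 and ZT12 are bluest, with Lss in DBA/2J at ZT12 the lowest at -0.62.

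In single strain-times, mostly 3 arrays against 3, calls stood at ZT6 and ZT12 alone. C57BL/6J had 9 falls and no rise at ZT6, where 5.15% of all named genes fell and 3.05% rose. Its sleep-deprived replicates 1 and 3 at ZT6 were among the 6 arrays with low poly-A control signal. These 9 falls include Sc5d (-0.39), whose next brightest probe set was higher in sleep-deprived C57BL/6J over the times together. At ZT12 C57BL/6J had 5 falls (1.29% and 1.58%). DBA/2J had 7 falls and 1 rise at ZT6 (2.09% and 2.68%) and 6 falls and 1 rise at ZT12 (1.95% and 1.96%). AKR/J had 2 falls at ZT6 (1.2% and 2.15%) and 2 at ZT12 (1.2% and 1.18%). At ZT0 limma called no member in AKR/J, C57BL/6J or DBA/2J, with 3, 9 and 6 at an unadjusted p under 0.05 and 0.258%, 0.429% and 0.159% of named genes called. At ZT18 it called none either, with 0, 1 and 2 at an unadjusted p under 0.05 and 0%, 0% and 0.011% of named genes called. Lss was called in 6 of the 12 strain-times and Insig1 in 5. The largest single effects were Lss in DBA/2J and C57BL/6J at ZT12, -0.62 and -0.61, and Insig1 in C57BL/6J at ZT12, -0.57.

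Time of day also moved these genes in undisturbed mice. An F test over the 4 times in controls called 13 of 30 members, against 14.8% of all named genes. These comparisons share the control arrays with those of sleep deprivation, so the values stand side by side and are not independent. Of the 13, 8 were highest at ZT6, 3 at ZT12 and 2 at ZT18, and 8 were lowest at ZT18. Among all named genes called, 24.5% were highest at ZT6, 27.1% at ZT12 and 37.2% at ZT18, and 31% were lowest at ZT18.

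Lss in controls had lowest, median and highest levels of 6.71, 7.15 and 7.34 at ZT0, 7.25, 7.47 and 7.57 at ZT6, 7.32, 7.54 and 7.87 at ZT12, and 7.01, 7.12 and 7.29 at ZT18. Levels at ZT12 were above all of those at ZT18 and overlapped slightly with those at ZT0, and the fitted times spanned 0.47 (adjusted p = 1.3e-08). Insig1 had 7.58, 7.79 and 8.26 at ZT0, 7.85, 8.08 and 8.41 at ZT6, 7.72, 8.04 and 8.19 at ZT12, and 7.44, 7.74 and 7.90 at ZT18, and spanned 0.35 (adjusted p = 1.48e-05). Dhcr7 had medians of 8.22, 8.34, 8.35 and 8.09 in the same order, with a highest ZT18 array, 8.19, no higher than the lowest at ZT6 (8.19), and spanned 0.31 (adjusted p = 2.54e-05). Hmgcs1 medians were 11.39, 11.46, 11.49 and 11.26, with a span of 0.21 (adjusted p = 3.8e-05) and overlap between times.

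The 3 genes that rose after sleep deprivation, Elovl6, Insig2 and Ebp, each had their highest fitted control level at ZT18, and the F test called the first 2. Elovl6 had control medians of 9.26 at ZT0, 9.11 at ZT6, 9.09 at ZT12 and 9.35 at ZT18 (span 0.23, adjusted p = 0.000107), and Insig2 was also highest at ZT18 (span 0.19, adjusted p = 0.00034). The ZT18 lowest Elovl6 array, 9.14, was above the highest at ZT12, 9.13. Ebp had fitted control levels of 8.06 at ZT0, 8.08 at ZT6, 8.07 at ZT12 and 8.17 at ZT18 and was not called for time of day (adjusted p = 0.149). The remaining calls were Mvk, Mvd, Msmo1, Sqle, Nsdhl, Fdft1 and Fasn, with spans of 0.13 to 0.24. Of the 10 oligodendrocyte markers, 6 were also called for time of day in controls, and their part here was not tested.

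In sleep-deprived mice the same F test of limma called no member, with 10 at an unadjusted p under 0.05 and 2.01% of all named genes called. Lss had medians of 6.93, 7.00, 6.98 and 7.08 from ZT0 to ZT18, and Insig1 7.79, 7.69, 7.62 and 7.68. The fitted times spanned 0.13 for Lss and 0.16 for Insig1. The nearest to the threshold was Dhcr7 (adjusted p = 0.0941). A call in one condition and none in the other does not show a difference, and the direct test is the one of time by sleep deprivation above, which called Lss and Insig1.

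**Figure D4:**
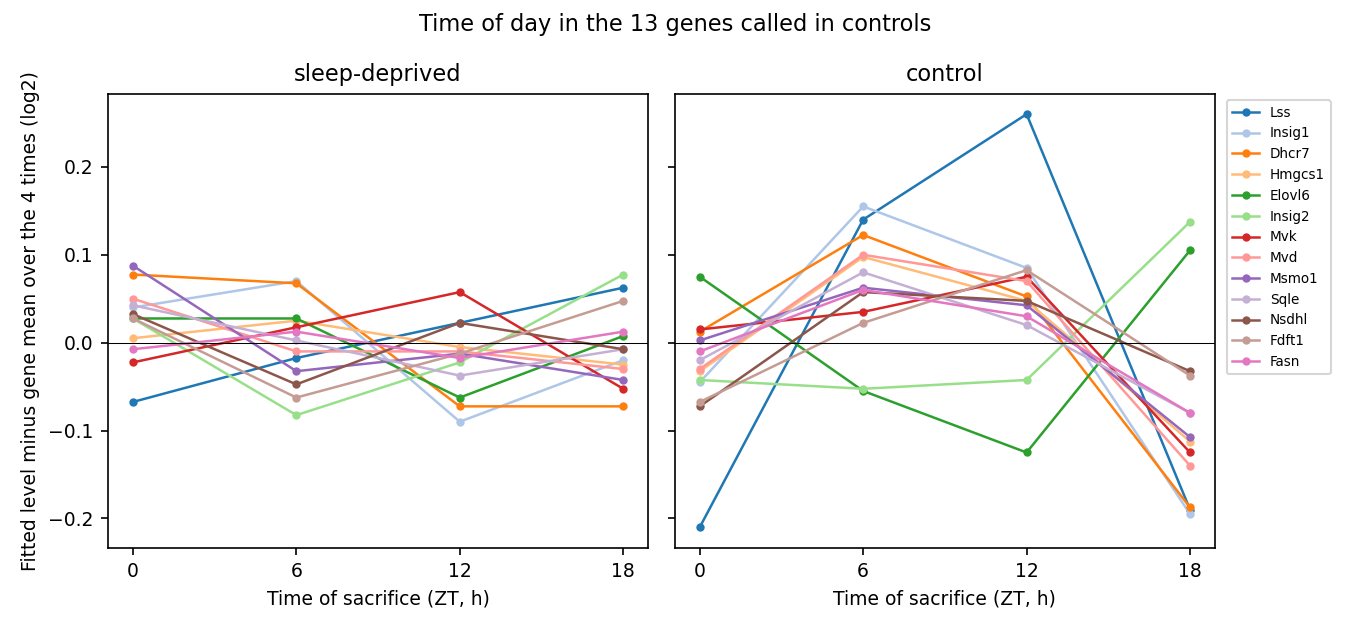
Fitted level of the 13 genes called for time of day in controls (vertical axis, log2 units relative to each gene's mean over the 4 times) against time of sacrifice (ZT, hours), in sleep-deprived mice on the left and controls on the right. In controls 8 of the 13 lie highest at ZT6 and Lss spans 0.47, while Elovl6 and Insig2 are highest at ZT18.

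The strains also differed in these genes when undisturbed. In controls, 12 members differed between DBA/2J and C57BL/6J (5 lower and 7 higher in DBA/2J, against 9.91% and 15.7% of all named genes), 11 between DBA/2J and AKR/J (2 lower and 9 higher in DBA/2J, against 8.95% and 9.47%), and 13 between AKR/J and C57BL/6J (9 lower and 4 higher in AKR/J, against 10.2% and 14.8%). Cyp51, lanosterol demethylase, was lowest in DBA/2J: 7.56, 7.74 and 7.81 (lowest, median, highest) there, against 8.05, 8.18 and 8.24 in AKR/J and 8.00, 8.16 and 8.25 in C57BL/6J. DBA/2J did not overlap with the other strains, at -0.43 against C57BL/6J and -0.45 against AKR/J (adjusted p = 4.4e-18 and 6.04e-19). A second Cyp51 probe set gave -0.49 and -0.37, and the remaining dim one was not called.

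Stard4 was highest in DBA/2J, with 8.36, 8.67 and 8.82 against 8.27, 8.39 and 8.48 in AKR/J and 8.07, 8.26 and 8.46 in C57BL/6J. The differences were 0.26 against AKR/J and 0.39 against C57BL/6J (adjusted p = 1.44e-09 and 2.25e-15), with overlap of the ranges, and AKR/J exceeded C57BL/6J by 0.13. Its dimmest probe set did not show them, at 0.007 and 0.063. Hmgcs1 was also highest in DBA/2J, with medians of 11.56 in DBA/2J, 11.27 in AKR/J and 11.42 in C57BL/6J. Insig1 was lowest in AKR/J, with medians of 8.04 in DBA/2J, 7.74 in AKR/J and 8.11 in C57BL/6J, and AKR/J minus C57BL/6J was -0.32 (adjusted p = 2.96e-07). Acaca, acetyl-CoA carboxylase, was lower in DBA/2J than in AKR/J on its brightest probe set (-0.26) and higher on its other one (0.38), so no direction is given for the gene.

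Sc5d showed the largest difference between strains among the members, on its brightest probe set. There it read 7.01, 7.25 and 7.46 in AKR/J controls and 7.12, 7.28 and 7.40 in DBA/2J controls, against 8.98, 9.30 and 9.46 in C57BL/6J controls. Both strains lay below every C57BL/6J array: AKR/J minus C57BL/6J was -2.02 and DBA/2J minus C57BL/6J -2.01. This probe set is the brightest over all arrays through C57BL/6J, with a control mean of 9.27 there against 7.89 on the next brightest. In AKR/J and DBA/2J controls it was the dimmer of these, at 7.25 and 7.26 against 7.75 and 7.8. On the next brightest the differences were -0.14 (adjusted p = 0.0182) and -0.091 (not called), and on the dimmest -0.072 and -0.08 (neither called). Whether the probes of the brightest set match a sequence that differs between the strains was not tested. Of 10 oligodendrocyte markers 9 were lower in DBA/2J and 8 in AKR/J than in C57BL/6J, and their part in these differences was not tested.

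**Figure D5:**
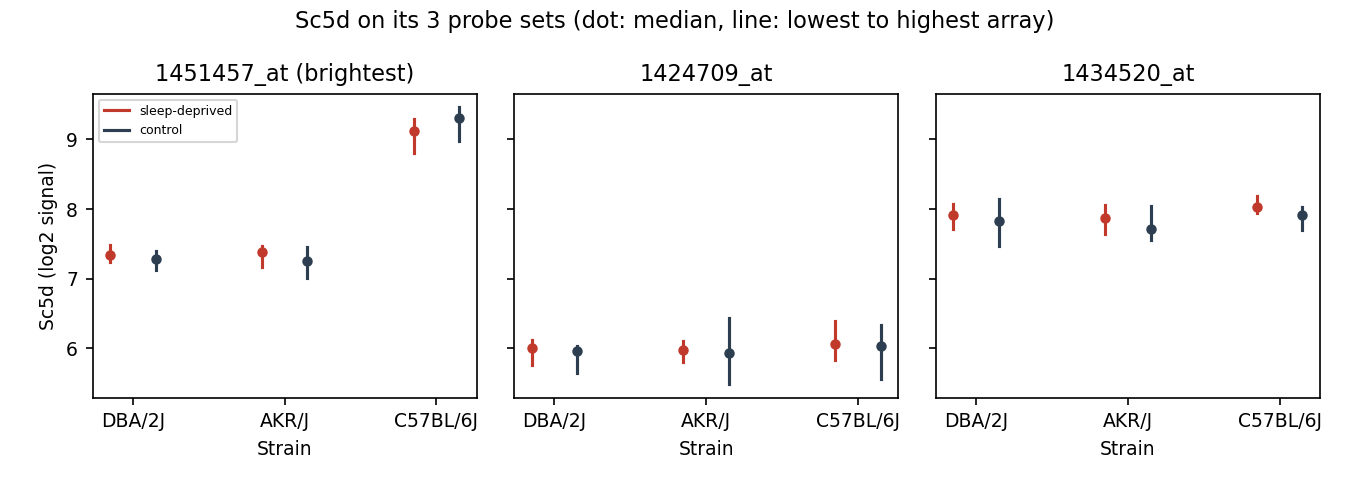
Sc5d level (vertical axis, log2 signal) on its 3 probe sets by strain and condition; dots are medians and lines run from the lowest to the highest array. On the brightest probe set, at the left, the AKR/J and DBA/2J arrays lie between 7.01 and 7.49 and those of C57BL/6J between 8.80 and 9.46, while on the other 2 probe sets the strains overlap.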

How the data were processed

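Total RNA from whole brains, pooled from 3 mice per array, was hybridised to Affymetrix arrays, per the labels' protocols. The deposited values are log2 signal per probe set, summarised by RMA per the submitters' processing notes, whose version is not given in the sources used here; RMA puts arrays on a common distribution, so absolute shifts of all genes are not seen. Between arrays of 1 group the root mean square difference was 0.145 to 0.239 log2 units, and each array counted as 1 sample. The labels do not say whether pools were prepared separately beyond their mice, so p-values measure the spread between these pools.

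The file lists 45101 probe sets, and the 64 that are controls were not tested. The platform annotation gave 1 symbol to 34945 probe sets, several to 932 and none to 9160. For 34741 the symbol was found through the Entrez ID in a RefSeq gene list of GRCm38.p6, used for names, chromosomes and promoters. A gene was counted on its probe set of highest mean level, named only by a probe set with 1 symbol. A cell-means model of 24 groups was fitted to the 71 arrays with limma 3.58.1 in R 4.3.3, with 47 residual degrees of freedom, two-sided tests and Benjamini-Hochberg adjustment over 45037 probe sets. Interactions of sleep deprivation with strain or with time, and differences between times of day, were tested with F tests. The fit was tested on simulated data.

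The members, the further pathway genes, the marker lists and the motifs were chosen with earlier results of these data known. Levels are given in full for up to 10 called members with the smallest p for sleep deprivation and up to 5 in each other comparison. Alternatives were quantile normalization, centring on array medians, array weights, eBayes with trend and robust settings, the replicate number as a block, probe sets above the median level, 1 probe set per gene, the mean of a gene's probe sets, only the compared groups, and leaving out each array. A block for the 6 arrays of low spike-in signal, and their omission, were also run. The labels give no scan date or slide.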

Additional observations from a re-analysis of the deposited data

Results flagged for a closer look

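Lss and Insig1 are given here because their response to sleep deprivation differed between times of sacrifice by a direct test. The range between the effects at the 4 times was 0.487 log2 units for Lss (limma F test on its brightest probe set, adjusted p = 0.000785) and 0.351 for Insig1 (adjusted p = 0.0211). For both, the effect was the most negative at ZT12 and nearest to 0 at ZT18. With the mean of its 3 probe sets the Lss range was 0.226 (adjusted p = 0.00324). Neither result has an explanation tested here.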

How the results depend on the processing

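Of the counts recomputed under alternatives other than leaving out 1 array, 153 stayed within 1.5 times the reported count and 19 moved. The same-numbered arrays of sleep-deprived and control groups had correlations of deviations from -0.275 to 0.603, with 6 of 35 over 0.1. Most same-numbered arrays thus did not vary together, but these values cannot show that none were processed together. With the replicate block, 16 members fell and 3 rose, 8 fell in DBA/2J against 7, and no count moved by over 1.5 times. Strain by sleep deprivation called 1 member, Sc5d, against 0, with trend and robust eBayes, array weights, probe sets above the median level, and 1 probe set per gene. DBA/2J falls numbered 11 with array weights, 12 with probe sets above the median level and 12 with a block for spike-in batch, against 7. Time by sleep deprivation called 6 with array weights, 5 above the median level, 4 with the mean of a gene's probe sets and 4 with the spike-in block, against 2. Time of day in sleep-deprived mice called 6 with array weights and 1 with each of the median level, the mean of probe sets, the spike-in block and leaving out the 6 spike-in arrays, against 0. AKR/J falls numbered 2 with only the compared groups, against 5, and ZT0 falls 0 with only the compared groups and 0 without the 6 arrays, against 2. The Sc5d effect of 0.007 turned to -0.009 with array weights, to -0.002 without the 6 arrays, to -0.003 without AKR/J control ZT0 replicate 3 and to -0.004 without C57BL/6J control ZT0 replicate 3, with a highest value of 0.014 when 1 array was left out. With the mean of a gene's probe sets the calls of Scap, Fdft1 and Hsd17b7 were lost and Sc5d (0.058) and Scd2 (-0.046) were called. Tm7sf2 was called lower with array weights, the spike-in block and without the 6 arrays. The cause was not tested. Fewer probe sets enter the adjustment above the median level and with 1 probe set per gene.

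Leaving out each of the 71 arrays in turn gave 15 to 17 falls and 3 to 4 rises over all strains and times, 2 to 6 falls in AKR/J, 11 to 14 in C57BL/6J and 5 to 9 in DBA/2J. By time it gave 0 to 3 falls at ZT0, 12 to 14 at ZT6, 12 to 14 at ZT12 and 0 to 0 at ZT18. Strain differences in controls called 9 to 14 (DBA/2J and C57BL/6J), 10 to 12 (DBA/2J and AKR/J) and 12 to 15 (AKR/J and C57BL/6J). Strain by sleep deprivation called 0 to 1, time by sleep deprivation 1 to 3, and time of day 10 to 13 in controls and 0 to 1 in sleep-deprived mice. AKR/J falls were 3 without AKR/J control ZT12 replicate 3, control ZT18 replicate 2 or sleep-deprived ZT0 replicate 2, and 2 without sleep-deprived ZT18 replicate 1. ZT0 falls were 1 without ZT0 arrays AKR/J control replicate 1 or 3, AKR/J sleep-deprived replicate 1, C57BL/6J control replicate 2, DBA/2J control replicate 1 or DBA/2J sleep-deprived replicate 1 or 3, and 0 without C57BL/6J control replicate 3 or sleep-deprived replicate 1. Strain by sleep deprivation called 1 without AKR/J control ZT0 replicate 2, control ZT6 replicate 2, sleep-deprived ZT0 replicate 3 or sleep-deprived ZT6 replicate 3, or C57BL/6J control ZT0 replicate 3, control ZT12 replicate 1 or sleep-deprived ZT6 replicate 2. Time of day in sleep-deprived mice called 1 without C57BL/6J sleep-deprived ZT0 replicate 3 or ZT18 replicate 1. The Hsd17b7 call was lost in 11 of these 71 fits and that of Scd1 in 1. Calls were gained by Tm7sf2 in 2, and by Acly (lower, without DBA/2J control ZT0 replicate 3), Acaca (lower, without DBA/2J control ZT6 replicate 1) and Elovl5 (higher, without DBA/2J control ZT6 replicate 3).

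The arrays hold no depth or detection calls, so signal over background sets what can be seen: 13 of 69 member probe sets, none of them the brightest of its gene, lay below the median level of all probe sets, 5.68. At ZT18 the test of time by sleep deprivation rests on 8 sleep-deprived arrays, of which 2 are AKR/J.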
